A study of Sus scrofa with 2 samples.

Results

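AKT1, HK2, SOCS2 and SOCS3 were examined as insulin effectors and SOCS feedback genes in ovarian tissue of minipigs and conventional pigs. The members were the array probes other than controls whose transcript accession belongs to one of these genes in the pig annotation. This gave 5 of the 43597 probes and 4 of the 2459 genes that could be named in this way. AKT1, HK2 and SOCS3 had 1 probe each and SOCS2 had 2, which target the same transcript and are not replicates of it. Ovarian tissue was taken on day 15 of the cycle from female Yorkshire sows (conventional pigs) and female Midget minipigs of the same age, the luteal tissue was cut away, and the RNA of each breed was hybridised to 1 single-colour Agilent array, called the minipig array and the pig array below. Several animals of each breed were collected, and it is not said if each array holds pooled RNA or that of 1 animal. There is 1 array per breed, so no difference has a replicate check, no test was run, and the values describe these 2 arrays.

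The breeds are assigned in opposite ways by the sources. The scanner files label one array as minipig and the other as pig, and these labels are used throughout. The authors' deposited log2 table lists 5617 probes, of which 5613 were printed once on the array. For these, the minipig column matched the scanner values of the pig array on the log2 scale after 1 constant was subtracted, to within 7.46e-07, and the pig column matched the minipig array, to within 5.24e-07. For the 4 probes printed several times, whose spots were averaged here, the departures reached 0.025. Read with the scanner labels, the table holds 2694 probes higher on the pig array and 2923 higher on the minipig array. The counts the study prints for this cutoff are assigned to the breeds as in the scanner files. Every direction below would turn round under the labels of the table.

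Insulin and insulin-like growth factors bind receptor tyrosine kinases, which act through adaptor proteins and PI3-kinase on the kinase AKT. AKT in turn favours glucose uptake, glycolysis, protein synthesis and cell survival, and hexokinase 2 catalyses the first step by which glucose is trapped in the cell. The suppressors of cytokine signaling (SOCS) are induced by cytokine and growth hormone receptors through JAK kinases and STAT factors, and they inhibit those receptors in a feedback loop. SOCS2 is best known for restraining growth hormone signaling and SOCS3 for restraining signaling of the interleukin 6 receptor family, and SOCS3 can also act on the insulin receptor and its substrates. In the ovary, insulin, insulin-like growth factors and growth hormone act on granulosa and theca cells.

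HK2 was higher on the pig array and SOCS2 was higher on the minipig array, each by a little over 2-fold, whereas AKT1 and SOCS3 differed by under 1.2-fold. Each of the 5 probes was well above background on both arrays. Intensities are the background-corrected values of the scanner software, each given with the error that the software assigns to the spot. Levels are log2 intensities relative to the 75th percentile of the same array, an intensity of 494 for minipig and 513 for pig. Differences are conventional pig minus minipig on this log2 scale, with a standard error (SE) computed from the spot errors, which covers the spots and not the animals.

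AKT1 encodes the serine/threonine kinase on which the insulin and IGF receptors converge. Its probe had an intensity of 662 ± 66.3 on the minipig array and of 615 ± 61.6 on the pig array. The levels were 0.42 and 0.26, and the difference was -0.16 (SE 0.20), or 1.12-fold higher on the minipig array. This difference was smaller than its own error. Over 3924 probes whose mean level lay within 0.5 of that of AKT1, the median difference was 0.02, and the 5th and 95th percentiles were -1.22 and 1.32.

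HK2 encodes the hexokinase isoform of insulin-sensitive tissues. The minipig array read 22.0 ± 3.49 in intensity and the pig array 56.7 ± 6.36, with levels of -4.49 and -3.18. The difference was 1.32 (SE 0.28), or 2.49-fold higher on the pig array, and the 2 intensities did not overlap within their errors. This was a dim spot. Its median pixel signal was 58 against a local background of 22 on the minipig array, and 95 against 25 on the pig array. Of the 38883 probes that gave a difference or bound, 7.48% were higher on the pig array by 2-fold or more, and of the 4932 probes within 0.5 of the mean level of HK2, 3.37% were. With another background correction, normexp with an offset of 50, the difference of HK2 was 0.48, which is under 2-fold.

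SOCS2 encodes the SOCS protein that acts on the growth hormone receptor. The brighter of its probes had an intensity of 153 ± 15.5 on the minipig array and of 71.9 ± 7.90 on the pig array, a difference of -1.14 (SE 0.22) or 2.21-fold. The dimmer probe had intensities of 56.9 ± 6.19 and 25.0 ± 3.59 in the same order, a difference of -1.24 (SE 0.26) or 2.36-fold. Both probes were higher on the minipig array, and for neither did the intensities overlap within their errors. The median of the 2 differences was -1.19. Of all probes, 8.94% were higher on the minipig array by 2-fold or more. The share was 8.94% among the 6005 probes within 0.5 of the mean level of the brighter SOCS2 probe, and 10.2% among the 5104 probes within 0.5 of that of the dimmer one. The median was -0.98 after quantile normalization, -0.99 after loess normalization and -0.71 with normexp, all short of 2-fold.

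SOCS3 encodes the SOCS protein that binds the shared signaling chain of the interleukin 6 receptor family. The intensities were 148 ± 15.0 (minipig array) and 180 ± 18.1 (pig array), with levels of -1.74 and -1.51. The difference was 0.23 (SE 0.21), or 1.17-fold higher on the pig array, which is close to the size of its error. The 5th and 95th percentiles of the difference over 6098 probes of like level were -1.33 and 1.04.

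**Figure D1:**
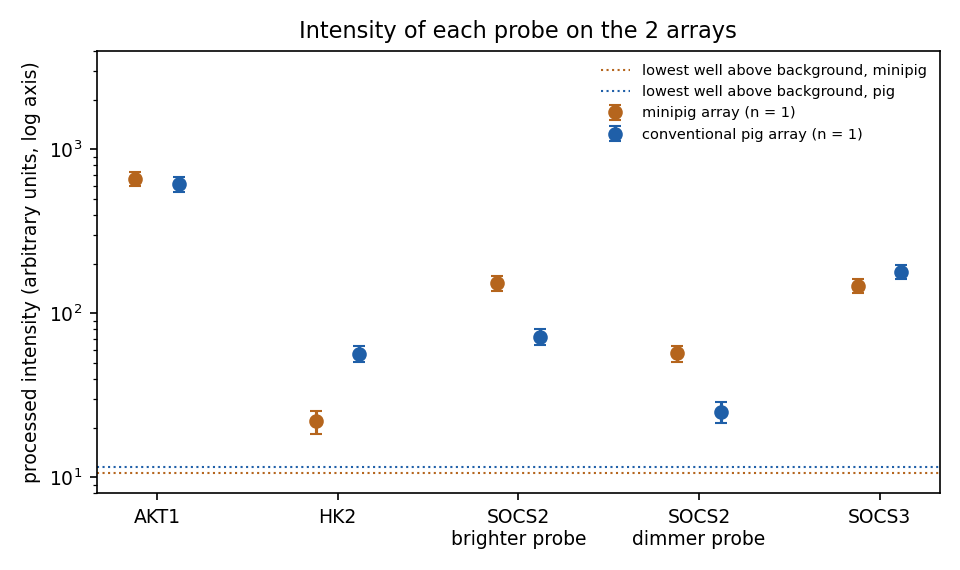
Processed intensity (arbitrary units, log axis) of the 5 probes of AKT1, HK2, SOCS2 and SOCS3 on the minipig array and the pig array, 1 array each, with bars for the scanner software's spot error and dotted lines for the lowest intensity well above background on each array (10.6 and 11.5). HK2 lies higher on the pig array, both SOCS2 probes lie higher on the minipig array, and the bars of AKT1 and of SOCS3 overlap.

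Among the named genes, 277 of 2363 (11.7%) were higher on the pig array by 2-fold or more and 188 (7.96%) on the minipig array. Of the 4 genes examined, 1 was on each side. Of the probes past 2-fold, 54.4% were higher on the minipig array, against 40.2% after median centring and 41.1% with normexp. Of the genes past 2-fold, 40.4% were higher on the minipig array, against 27.8% and 32.1% in the same order. Median centring moved the median difference of all probes by 0.15, and quantile and loess normalization each moved it by 0.11, toward the pig array. Binding of other transcripts by these probes was not tested.

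Spots printed repeatedly and transcripts added as controls gave the technical spread. Over 39 probes with 5 spots each, the SD of the difference between the arrays was 0.19, and for the 25 of them with a level under -2 on the minipig array it was 0.21. The differences of HK2 and of both SOCS2 probes were larger than this spread, that of AKT1 was smaller, and that of SOCS3 was slightly larger. The adenoviral E1A control transcripts were each read by 32 spots. For the 6 that had a median intensity of 100 or more on the minipig array, the mean differences lay between -0.21 and -0.09. Of the 3 dimmer ones that were well above background in every spot, 2 differed more. One went from 28.5 on the minipig array to 31.9 on the pig array (0.14, SD 0.25), one from 61.8 to 45.8 (-0.48, SD 0.15) and one from 75.2 to 43.5 (-0.82, SD 0.16). Dim control spots thus differed both ways, and the part of dim signal in the differences of SOCS2 and HK2 was not tested. Taken relative to the mean of the 6 brighter controls, the difference was -1.04 for SOCS2, 1.47 for HK2, 0.38 for SOCS3 and 0.00 for AKT1.

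**Figure D2:**
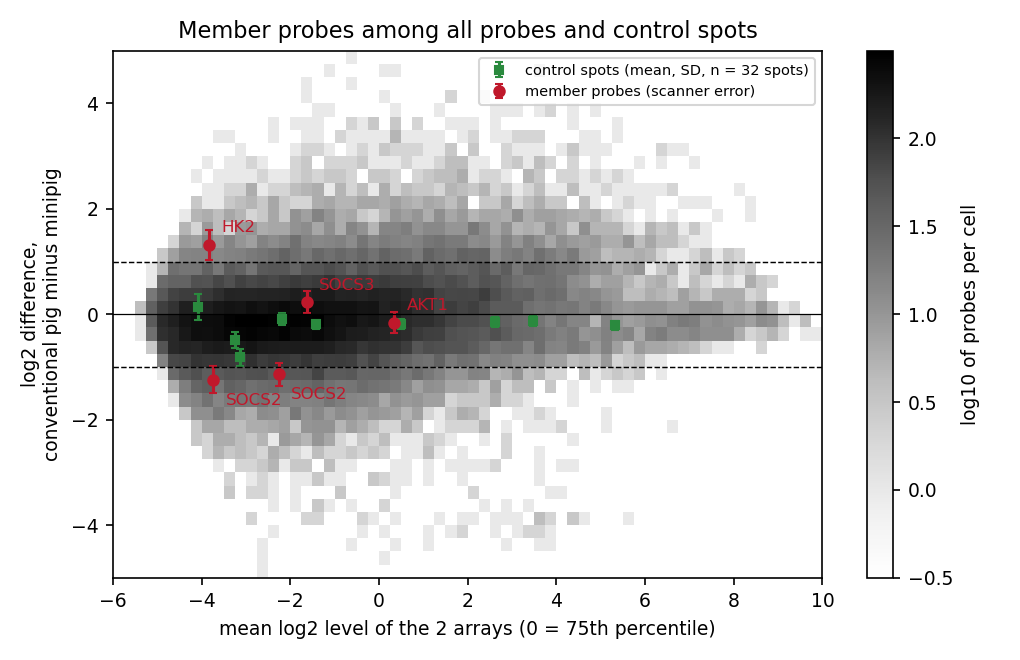
Log2 difference (conventional pig minus minipig) against the mean log2 level of the 2 arrays (0 is the 75th percentile), with the number of probes per cell in grey, the E1A control transcripts as green squares (mean and SD over 32 spots) and the probes of the 4 genes as red circles (SE from the scanner error). Dashed lines mark 2-fold. HK2 lies above the upper line and both SOCS2 probes lie below the lower one, with the control transcript at -0.82 between them in level.

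Few genes upstream of AKT1 could be read. Of 24 insulin and IGF receptors and adaptors, 7 had a value, 5 were higher on the pig array, 2 were higher on the minipig array, and 0 were past 2-fold either way. Their median was 0.45, against 0.04 over all 2363 named genes, of which 11.7% and 7.96% were past 2-fold toward the pig and the minipig array. The IGF1 receptor gene IGF1R had a difference of 0.06 from 2 probes. GRB2, which encodes an adaptor that links receptors to Ras, was the highest at 0.61. INSR, IRS1 and IRS2 were not analysed here. The list of PI3K, AKT and mTOR signaling had values for 7 of 43 genes, AKT1 among them, with a median of -0.32 and 0 past 2-fold. FOXO3, a transcription factor that AKT inhibits, was at -0.55. GSK3B, a kinase that AKT also inhibits, was at 0.44. AKT2 was not analysed here.

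Around HK2, the genes of glucose uptake, glycolysis and glycogen went both ways. Of 49 listed genes, 18 had a value, 9 were higher on each array, and the median was -0.12, a sign that changed in 1 of 4 other scalings and background corrections. Past 2-fold toward the pig array were 4 of the 18 genes, against 11.7% of all named genes. Besides HK2, these were GPI, which acts on the product of hexokinase, at 1.74, the glycolytic kinase gene PGK1 at 1.36 and FBP1, an enzyme of gluconeogenesis, at 1.43. The 3 probes of GPI ran from 1.68 to 1.98 and the 6 of PGK1 from 1.17 to 1.55, so that every probe of both was past 2-fold, whereas the 3 of FBP1 ran from 0.62 to 1.74. Past 2-fold toward the minipig array were 2 of the 18 genes, against 7.96% of all named genes. The muscle enolase gene ENO3 was at -1.04, but at -0.88 with normexp and at -0.89 after median centring, and PDK4, which encodes a kinase that inhibits pyruvate dehydrogenase and is repressed by insulin in many tissues, was at -3.04. The 9 probes of PDK4 spread from -3.17 to -0.78, and its value was -2.35 with normexp. The insulin-responsive glucose transporter gene SLC2A4 was at -0.30, with its 3 probes from -0.51 to 0.02, while LDHA was at 0.32 and LDHB at -0.86. HK1 and SLC2A1 were not analysed here.

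SOCS2 was the only gene past 2-fold among the 5 of 8 SOCS family genes with a value. Of all named genes, 11.7% were past 2-fold toward the pig array and 7.96% toward the minipig array. SOCS2 itself was short of 2-fold with normexp (-0.71) and after quantile (-0.98) and loess (-0.99) normalization. SOCS4 was at 0.15, SOCS5 at -0.07 and SOCS6 at -0.02, and the family median of -0.02 changed sign in 3 of 4 other scalings and background corrections. CISH and SOCS1 were not analysed here. On the receptor side of SOCS2, the growth hormone receptor gene GHR was at 0.01, with probes at -0.07 and 0.09. The prolactin receptor gene PRLR was at -0.55, from an intensity of 26.0 on the minipig array and 18.5 on the pig array, but at -0.13 with normexp, -0.24 after quantile and -0.26 after loess normalization. JAK2, the kinase bound to both receptors, was at 1.0, with probes at 0.80 and 1.20. STAT5B, a transcription factor downstream of it, was at 1.23, with probes at 0.77 and 1.68, and STAT5A was at 0.05. With normexp, JAK2 was at 0.76 and STAT5B at 0.98, both under 2-fold. JAK2 and STAT5B were thus higher on the array on which SOCS2 was lower, whereas PRLR went with SOCS2 and GHR and STAT5A hardly differed. A link between these genes and SOCS2 was not tested.

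On the receptor side of SOCS3, the cytokine gene IL6 was at 1.24, with 3 probes from 1.20 to 2.01, and IL6ST, which encodes the shared signaling chain gp130, was at 1.66, with probes at 1.54 and 1.78. IL6 was at 0.90 with normexp, under 2-fold. The IL6 receptor gene IL6R was at -0.06, with 3 probes from -1.06 to 0.36, LIF, a cytokine that also acts through gp130, was at -0.32, and the kinase gene JAK1 was at -0.63. STAT3, the transcription factor downstream of gp130, was at 0.30, but its 4 probes ran from -0.25 to 0.98. IL1B, an inflammatory cytokine, went from an intensity of 372 on the minipig array to 50.4 on the pig array, a difference of -2.94, or -2.07 with normexp. In all, 24 of 42 genes of JAK-STAT signaling and its cytokines had a value, with 15 higher on the pig array and 9 on the minipig array. Past 2-fold were 4 and 1, respectively, against 11.7% and 7.96% of all named genes, and the 1 was IL1B. The list median was 0.08.

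**Figure D3:**
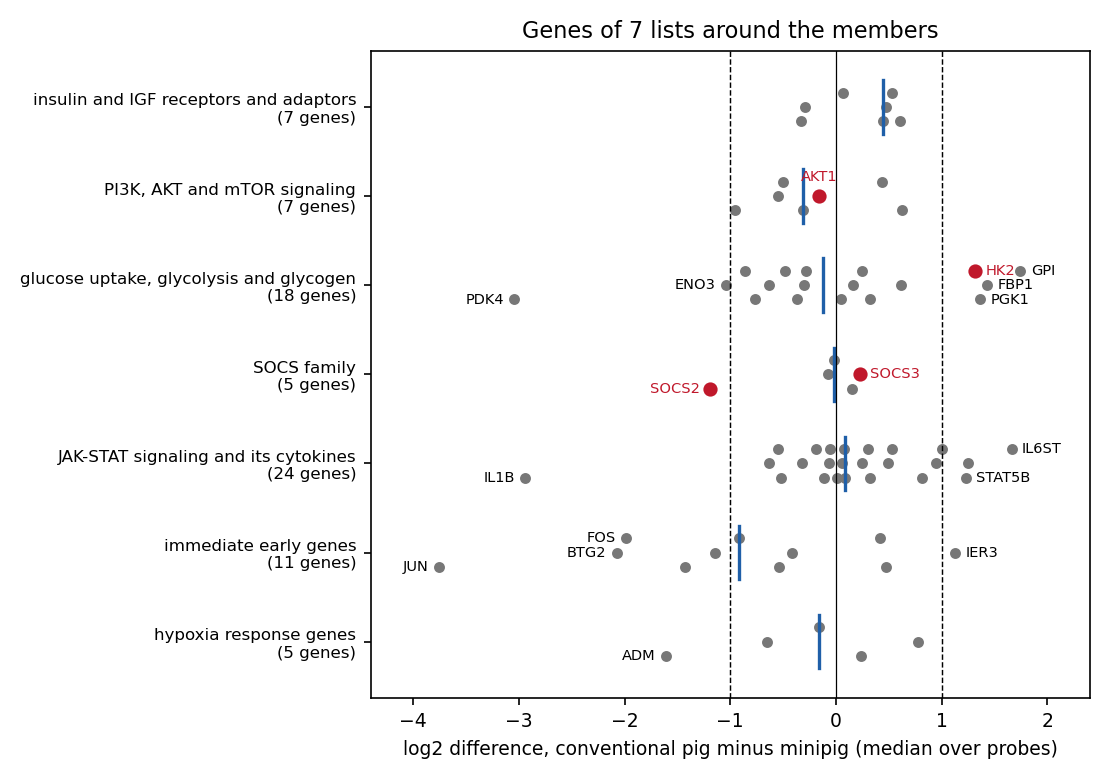
Log2 difference (conventional pig minus minipig, median over the probes of a gene) for each gene with a value in 7 lists, with 1 point per gene, AKT1, HK2, SOCS2 and SOCS3 in red, the median of each list as a blue line and 2-fold as dashed lines. Under the reported scaling, HK2 lies beside GPI, PGK1 and FBP1, SOCS2 lies apart from the other SOCS genes, and JUN and PDK4 lie farthest toward the minipig array. With normexp, HK2 was at 0.48, away from GPI (1.89), PGK1 (1.34) and FBP1 (1.15).

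Over the first 5 of these lists, 61 of 166 genes had a value, 33 were higher on the pig array, 28 were higher on the minipig array, and 8 and 4 were past 2-fold. The median was 0.05, against 0.04 over all named genes, of which 11.7% and 7.96% were past 2-fold toward the pig and the minipig array. Likeness to each of the 4 genes was measured by the nearest log2 difference among the 54 genes of these lists with every probe well above background on each array, which over 2 arrays is 1 value per gene. Nearest to HK2 were PGK1, IL6 and STAT5B. Nearest to SOCS2 were ENO3, LDHB and PDK1 (-0.63). SOCS3 was nearest to PCK1 (0.25), TNF (0.25) and PYGL (0.16), and AKT1 to STAT2 (-0.19), IFNG (-0.12) and SOCS5. These neighbours depend on the scaling. HK2 shared none of its 3 with those found under quantile or loess normalization or normexp, and AKT1 shared none under quantile or loess normalization, whereas SOCS2 kept at least 2 under each of 4 other settings.

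SOCS3 is also known as a gene that is switched on within minutes to hours of a stimulus, and immediate early genes, which respond to stimuli and to handling of tissue, were read beside it. Of 26 listed, 11 had a value, with 8 higher on the minipig array and a median of -0.92. Past 2-fold toward the minipig array were 5, namely JUN (-3.76), BTG2 (-2.07), FOS (-1.98), KLF6 (-1.43) and EGR2 (-1.15), of which EGR2 was short of 2-fold under median centring (-0.99), quantile (-0.96) and loess (-0.97) normalization and normexp (-0.46). The list median was -0.46 with normexp too. Of all named genes, 7.96% were past 2-fold toward the minipig array. IER3 was at 1.12. SOCS3, at 0.23, did not share the direction of these 5 genes. Of 13 hypoxia response genes, 5 had a value, with a median of -0.16. ADM, which encodes adrenomedullin, was at -1.61, VEGFA was at 0.78 and HIF1A was at -0.65. The part of these genes' differences in those of HK2 and SOCS2 was not tested.

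Markers of ovarian cell types differed between the arrays as well. In bulk tissue, fewer cells of a type and less RNA per cell cannot be told apart. Of all named genes, 11.7% were past 2-fold toward the pig array and 7.96% toward the minipig array. Of 10 granulosa markers with a value, 9 were higher on the minipig array and 8 by at least 2-fold (6 after median centring and 7 with normexp), with a median of -2.19. The summed level of the granulosa list, in units of the 75th percentile, went from 135 on the minipig array to 56.6 on the pig array. SERPINE2 (-1.03) was its brightest gene, and ESR2 was not well above background on the 2 arrays. Of 13 luteal markers with a value, 7 were higher on the pig array by 2-fold or more and 1 on the minipig array, with a median of 2.12. Their sum went from 207 on the minipig array to 540 on the pig array, and SCARB1 (2.46) had the brightest single probe. By the median over a gene's probes, OXT (0.33) was the brightest on the minipig array and STAR on the pig array. Theca markers summed to 105 and 199 in the same order, although their median was -0.62. The brightest was STAR (3.07) on the pig array, at an intensity of 74752, and INSL3 (-3.76) on the minipig array, at 35583. STAR and CYP11A1 (2.63), which carry the theca sum on the pig array, stand in the luteal list too. The theca genes INSL3 and CYP17A1 (-1.74) were past 2-fold toward the minipig array. All 7 oocyte markers with a value were higher on the minipig array, with sums of 14.6 and 4.19 and KIT (-2.04) the brightest.

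The sums of the other lists differed by under 2-fold, as did those of theca markers. Smooth muscle markers summed to 81.6 and 79.2, with ACTA2 (0.10) the brightest, but their median was -0.76, with DES (-2.0) and CNN1 (-1.32) past 2-fold toward the minipig array. The sums were 3.75 and 5.86 for endothelium, 5.52 and 6.77 for leukocytes (CD4 was not well above background), and 0.32 and 0.33 for red cells, from HBE1 alone. All 4 endothelium markers with a value were higher on the pig array, with a median of 0.68. Of these, 0 were past 2-fold, but 1 was after median centring, quantile or loess normalization. PECAM1 and CD163 had the brightest single probes of the endothelium and leukocyte lists. By the median over a gene's probes, ENG (0.80) was brighter than PECAM1 on both arrays. AIF1 (0.74) was likewise brighter than CD163 on the pig array. Skeletal muscle markers summed to 4.67 and 5.97 (ACTA1). Past 2-fold toward the pig array were TNNC2 (2.16) in this list and CD14 (1.04) in the leukocyte list. With normexp, neither list had a gene past 2-fold. Adipocyte markers summed to 9.73 and 5.33, or to 2.70 and 3.25 without the brightest gene, PPARG (-1.75), and LPL (1.87) was past 2-fold toward the pig array. PLIN1 and CIDEC, which mark fat cells, were not well above background on the 2 arrays. The part of granulosa, luteal, theca, oocyte and endothelium markers in the differences of HK2 and SOCS2 was not tested.

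**Figure D4:**
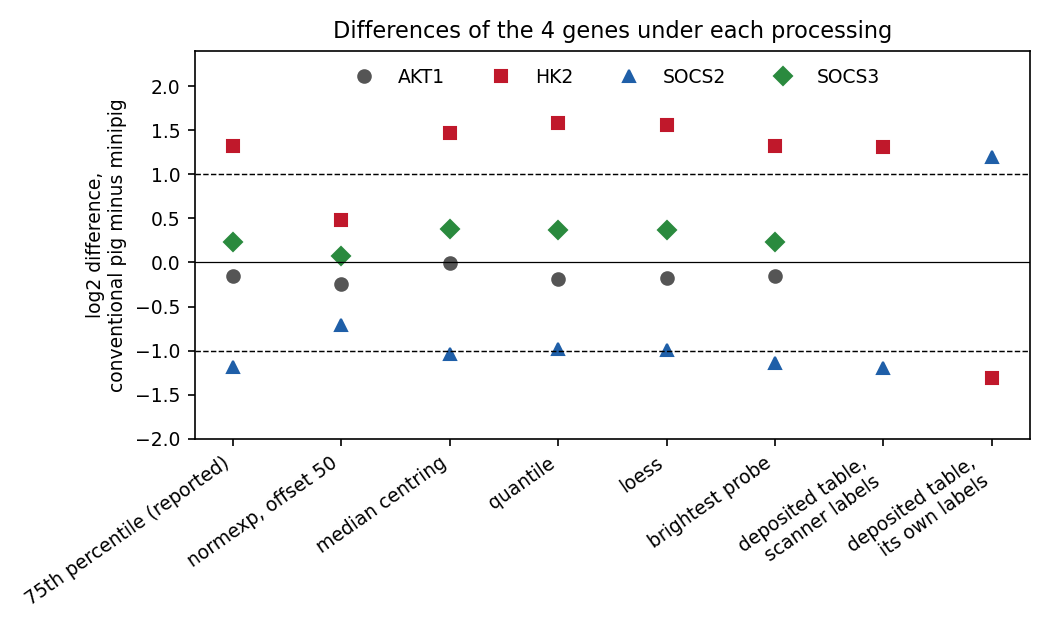
Log2 difference (conventional pig minus minipig) of AKT1, HK2, SOCS2 and SOCS3 under the reported 75th percentile scaling and 7 other settings, with 2-fold as dashed lines; the deposited table lists HK2 and SOCS2 only. With normexp HK2 is at 0.48 and SOCS2 at -0.71, SOCS2 also falls just short of 2-fold after quantile and loess normalization, and under the table's own labels both signs turn.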

How the data were processed

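The authors deposited the Feature Extraction 10.7.3.1 output of the arrays, in which the processed intensity of a spot is background-corrected and not scaled between arrays. The authors also deposited a log2 table of 5617 probes, each well above background on the 2 arrays and differing by 2-fold or more, with column medians of -0.93 (minipig) and -0.66 (pig). The methods name GeneSpring without its normalization or filter, and for the preprocessing they refer to a supplementary analysis file with the series. The table holds log2 intensities minus a constant, with no centring by gene, and its breed labels oppose those of the scanner files.

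Control spots and spots flagged as outliers (5 on the minipig array, 10 on the pig array) were dropped, and none was saturated. Repeated spots were averaged as log2 values and the 75th percentile of each array was subtracted. A probe was well above background where the flag held for at least 0.5 of its spots, which gave 88.1% of probes on the minipig array, 85.2% on the pig array and 36659 on both. For 2224 probes with only 1 array above, the difference is a bound against the higher of the lowest such intensity on the other array and the probe's own. A gene's value is the median over its probes.

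Accessions without versions named 5577 probes (12.8%) through the RefSeq table of Sscrofa11.1, which was used for names only. Other probes are unnamed here, and 2363 genes had a difference or bound. Genes named are the 4 members, pathway list genes past 2-fold, listed receptors, kinases, STAT factors, cytokines and the transporter gene SLC2A4, the 3 genes nearest to each member, and the gene with the brightest probe of each marker list. GRB2, FOXO3, GSK3B, LDHA, LDHB, SOCS4, SOCS5, SOCS6, IL6R, LIF, JAK1, VEGFA, HIF1A, CYP11A1, INSL3, CYP17A1, OXT, DES, CNN1, ENG, AIF1, CD14, TNNC2, LPL and IL10 were named after their values were seen. The members, the 7 pathway lists and the 10 marker lists were chosen with earlier results of these data known. The comparison of the deposited table over probes printed once was also chosen after the values over all its probes had been seen.

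Both arrays lay on 1 slide. Their number limits the precision. Alternatives were normexp (offset 50), median centring, quantile and loess (span 0.3) normalization, outlier spots kept, no filter on dim probes, only probes above background on both arrays, the deposited table, and the brightest probe or the mean over probes. The plan had normexp on mean signals, but medians of spots and of local background were used. Marker counts, nearest genes and signs of all list genes under these scalings, and the adipocyte sum without PPARG, were added after seeing the data. The steps were tested on simulated data. Software was Python 3.11.15 (pandas 2.3.3, numpy 2.4.6, statsmodels 0.14.6, scipy 1.17.1, matplotlib 3.10.9) and R 4.3.3 (limma 3.58.1).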

Additional observations from a re-analysis of the deposited data

How the results depend on the processing

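Over 9 settings other than the deposited table, none of the 4 genes changed sign. AKT1, HK2 and SOCS3 each had 1 probe, above background on both arrays. For them the filter and probe summary settings could only return the reported value, and keeping outlier spots hardly moved it. Their signs were therefore open to change only under normexp, median centring, quantile and loess normalization. AKT1 lay between -0.24 and -0.005, HK2 between 0.48 and 1.59, SOCS2 between -1.19 and -0.71 and SOCS3 between 0.07 and 0.38. HK2 was at 0.48 with normexp, 1.59 after quantile and 1.56 after loess normalization, and SOCS2 at -0.71, -0.98 and -0.99, and the cause was not tested. Of the 23 other genes run under all 9 settings, SLC2A4, STAT3 and GHR changed sign under some setting, and of 77 genes of the pathway lists, 6 did under normexp or another scaling (LDHA, SOCS5, SOCS6, IL6R, IL10 and IFNG). Normexp took the number of probes higher on the minipig array by 2-fold or more from 3475 to 1411 and that of genes from 188 to 98. The table's own labels turn every sign by construction, and its gene values rest only on probes already past 2-fold: HK2 was then at -1.31, SOCS2 at 1.19 (probes 1.14 and 1.24), GPI at -1.74, PGK1 at -1.36, FBP1 at -1.58, ENO3 at 1.11, PDK4 at 3.05, JAK2 at -1.20, STAT5B at -1.67, IL6 at -1.24, IL6ST at -1.66, IL1B at 2.94, FOS at 1.99, JUN at 3.76, EGR2 at 1.15, IER3 at -1.12, KLF6 at 1.5, BTG2 at 2.08 and ADM at 1.61, and 330 genes were past 2-fold toward the minipig array. The table does not list AKT1 and SOCS3. Spot signal over local background limits the dim probes, at 2.64 for HK2 on the minipig array and 2.67 for the dimmer SOCS2 probe on the pig array. No paired analysis was possible because there is 1 array per breed.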
